A study of Mus musculus with 20 samples.

Results

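Of the 42403 genomic regions bound by the endoderm transcription factor GATA6 during its forced expression in mouse embryonic stem (ES) cells, 4351 (10.3%) carried no GATA6 motif score in the deposited region table, and these 4351 regions are described here. They were chosen as the rows in which the motif column was empty, in all binding clusters, and they are set beside the 38052 regions that had a score. The choice used only the DNA sequence, so none of the accessibility values given here entered it.

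GATA factors are zinc finger proteins that recognise the short word GATA and the bases around it, most strongly where it sits in AGATAAG on either strand. GATA6 drives the primitive endoderm, the extraembryonic lineage that arises beside the pluripotent epiblast in the blastocyst, and it can bind its word on nucleosomal DNA, which makes it a pioneer factor. Chromatin immunoprecipitation reports where a factor sat on the genome, and a motif scan reports where the letters match its preferred word, so the 2 need not coincide. Bound regions in which the scan gave no match are called unscored below, and the others scored.

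The readout was ATAC-seq of 20 samples, in which the Tn5 transposase cuts DNA that is not covered by nucleosomes. KH2 ES cells (C57BL/6 x 129/Sv), which carry a doxycycline-inducible Gata6 cassette, were collected untreated (d0, 3 samples) and with doxycycline at 8h (3), 16h (3), d1 (3), d2 (3) and d4 (2), and uninduced wild type XEN cells of the X10 line (CD1), the cultured counterpart of the primitive endoderm, gave 3 more samples. Both ES and XEN cells were grown in serum on feeder fibroblasts, ES cells with LIF and XEN cells without. The study's methods state removal of feeders by adsorption for RNA-seq and chromatin immunoprecipitation, and do not state that step for ATAC-seq. Because one engineered line and one XEN line of another strain were used, line, strain and cell type cannot be told apart in the XEN comparison. The treatment labels of the 8h, 16h, d1, d2 and d4 groups list 16, 24, 48, 72 and 96 h of doxycycline, and the times in the sample titles are used here. The deposited values are in RPM (reads scaled to the size of the library) of fragments shorter than 100 bp, 1 column a group, and their digits are those of averages over libraries. At 24753 regions, 2498 of them unscored, the averages carried enough digits to be decomposed into whole reads of 16 single libraries, 3 each at 8h, 16h, d1 and d2 and 2 each at d4 and in XEN. The d0 average could not be decomposed and XEN gave 2 libraries where 3 samples are labelled, so tests compare with 8h, and folds against d0 are of averages and have no error. Within a group the recovered libraries are called a, b and c in order of decreasing size.

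Depth was 181165784 to 288376474 reads in 15 libraries and 43316058 in XEN b. The median unscored region held 11 to 37 reads in the 15 libraries and 4 reads in XEN b, so that single-region values of XEN b are coarse. Reads in the 24753 regions summed to between 2677 and 9640 RPM, and the 3 libraries of 8h alone ranged from 2677 to 5024 RPM. In the averages, regions nearest to 8 ES cell marker genes had a median of 0.128 RPM at d0, 0.285 at d2, 0.120 at d4 and 0.110 in XEN. Those nearest to 8 primitive endoderm markers had 0.0810 at d0, 0.341 at d2, 0.278 at d4 and 0.212 in XEN. The 14 regions near feeder fibroblast markers had 0.0882 at d0, 0.123 at d1, 0.0826 at d4 and 0.103 in XEN. In bulk material a change in the share of cells that open a region and a change in openness per cell cannot be told apart.

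Each deposited score belongs to the best 13-base match in a region. The matrix behind it was recovered from 37547 full-length deposited matches with a largest deviation of 5e-05, and its best word is shown first below with the central 6 bases in capitals. The next 3 words are the best ones of the unscored regions nearest under the limit (each scoring 6.22), and the last 3 those of the scored regions at the limit (each 6.23). They show how small the difference at the limit is.
Best word of the matrix: gggAGATAAgaaa
Unscored, near Bmpr2: taaAGTTAAgatt
Unscored, near Slc39a14: aagTGATAGgagt
Unscored, near Trim24: ggcAGATAGcaat
Scored, near Lpar1: aaaAGAAAAggct
Scored, near Ube2u: gtcTGATTAgatt
Scored, near Lin28a: gtgAGCTAAggca

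The lowest deposited score was 6.23 and the highest 15.2, with a median of 10.2 over the scored regions. When all regions were scanned again with the recovered matrix, 0 of the 4351 unscored regions held a word at or over 6.23, so the empty cells followed from the score limit at every one of them. At 37554 scored regions (98.7%) the same best score was found, and at the other 498 the deposited match was clipped at the edge of the region. The best word of the unscored regions had a median score of 5.05 (10th to 90th percentile 2.94 to 6.03), and in 1933 of them (44.4%) it lay within 1 unit of the limit. Of the scored regions, 3112 (8.18%) lay within 1 unit above it. The scores of both kinds of region thus met at the limit without a gap.

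**Figure D1:**
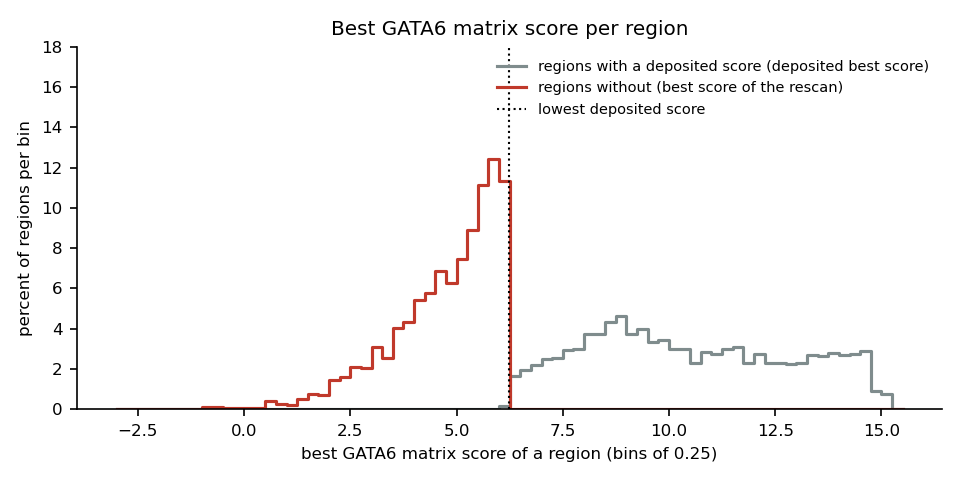
Distribution of the best GATA6 match score (x axis, matrix score) in regions without a deposited score, rescored here, and in regions with one (y axis, percent of the regions of each kind). The unscored regions end at 6.22 and the scored ones start at 6.23, with medians of 5.05 and 10.2.

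The letters themselves were counted on both strands, for GATA, for GATAA and AGATAA, which both contain it, and for ACAAT, the core of SOX factor sites. The bare word GATA was present in 3853 of the 4351 unscored regions (88.6%) and in 98.9% of the scored ones, whereas AGATAA was present in 12.4% and 73.0%. Among regions of 300 to 700 bp, AGATAA was present in 12.6% of the unscored and 69.0% of the scored, so the contrast was also there in this band. The band narrows the difference in width but does not remove it. Regions 341 to 397 bp wide numbered 664 unscored and 3567 scored, and those 604 to 708 bp wide 267 and 3961. In windows of 300 bases around the GATA6 summit, GATA was present in 95.6% and AGATAA in 58.1% of all regions, against 84.3% and 11.1% of the unscored. ACAAT was present in 65.1% of the unscored and 71.5% of the scored regions, in 67.5% and 66.7% at 300 to 700 bp, and in 58.5% and 55% of the windows, so its order depended on the length searched. The best word lay a median of 67 bp from the summit in unscored regions and 50 bp in scored regions. Within 100 bp outside the region border a word over the limit was found for 1223 unscored regions (28.1%) and for 33.2% of the scored, so the immediate flanks of unscored regions were not richer in strong words.

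Sequences of 5 unscored regions on which the accessibility results below turn are shown as stretches of up to 300 bases around the GATA6 summit, from the plus strand of GRCm38 (mm10), with GATA and its reverse complement TATC in capitals. They are a region with one of the 8 largest rises at d4 (Scoc, at its promoter), the region with the largest fall (Sgo2b), an unscored region 17 kb from Sox17, one 18 kb from Sox2 and one of the largest rises in XEN cells (Mtus1). In order, they lie at chr8:83458402-83458701, chr8:63929680-63929979, chr1:4479662-4479961, chr3:34668498-34668757 and chr8:41155165-41155464.
Scoc: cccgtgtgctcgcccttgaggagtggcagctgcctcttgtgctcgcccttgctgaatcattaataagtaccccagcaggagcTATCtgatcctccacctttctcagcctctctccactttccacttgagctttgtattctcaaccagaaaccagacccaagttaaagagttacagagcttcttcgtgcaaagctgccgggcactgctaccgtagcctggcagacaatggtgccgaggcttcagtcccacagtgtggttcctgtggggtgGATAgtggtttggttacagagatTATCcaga
Sgo2b: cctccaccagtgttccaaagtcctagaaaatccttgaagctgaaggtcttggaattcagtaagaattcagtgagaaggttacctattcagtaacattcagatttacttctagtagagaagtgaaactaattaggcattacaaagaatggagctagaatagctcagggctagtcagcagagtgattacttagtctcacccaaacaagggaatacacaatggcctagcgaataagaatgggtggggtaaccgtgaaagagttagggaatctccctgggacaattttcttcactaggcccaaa
Sox17: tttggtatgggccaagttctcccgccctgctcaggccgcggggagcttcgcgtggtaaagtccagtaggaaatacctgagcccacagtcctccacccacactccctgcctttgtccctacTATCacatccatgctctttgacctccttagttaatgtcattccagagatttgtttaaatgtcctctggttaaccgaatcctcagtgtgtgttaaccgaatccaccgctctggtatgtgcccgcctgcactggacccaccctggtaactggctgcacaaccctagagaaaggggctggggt
Sox2: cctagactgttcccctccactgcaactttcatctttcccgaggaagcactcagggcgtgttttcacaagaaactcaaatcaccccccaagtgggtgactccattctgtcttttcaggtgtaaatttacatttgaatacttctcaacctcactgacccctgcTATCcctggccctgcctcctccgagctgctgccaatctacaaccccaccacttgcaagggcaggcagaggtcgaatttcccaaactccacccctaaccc
Mtus1: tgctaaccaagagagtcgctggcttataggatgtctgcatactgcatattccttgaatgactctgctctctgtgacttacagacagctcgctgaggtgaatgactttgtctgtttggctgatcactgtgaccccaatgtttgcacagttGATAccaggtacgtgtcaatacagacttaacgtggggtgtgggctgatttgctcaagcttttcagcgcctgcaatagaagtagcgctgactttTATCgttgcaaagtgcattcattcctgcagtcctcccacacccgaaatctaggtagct
The stretch near Scoc held 3 copies of GATA, that near Mtus1 2, those near Sox17 and Sox2 1 each, and that near Sgo2b 0 copies of GATA but 2 of ACAAT. None of the 5 stretches held AGATAA. The best word of the whole region scored 2.55 at Scoc, 4.12 at Sgo2b, 2.06 near Sox17, 5.14 near Sox2 and 4.83 near Mtus1, so all 5 lay more than 1 unit under the limit. The word near Mtus1 lies in the region but outside the stretch shown.

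Unscored regions were narrow. Their median width was 378 bp (10th to 90th percentile 246 to 671) against 546 bp (292 to 1129) for scored regions, and a wider region offers more positions for a match. When all regions were split into 10 groups by width, of the narrowest (171 to 282 bp) 21.9% were unscored, and of the widest (1095 to 5380 bp) 0.967%. Base composition went the same way at the GC-rich end. Unscored regions made up 7.39% of regions with at most 40% GC and 37.5% of those over 60% GC, although the medians were close at 46.8% and 45.1%. CpG dinucleotides, which mark most promoters of housekeeping genes, had a median of 10.8 per kb in unscored and 9.58 per kb in scored regions. More than 50% of the sequence was annotated as repeat in 12.3% of the unscored and 8.22% of the scored regions. Because regions are not replicates, these shares are descriptions without a test.

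**Figure D2:**
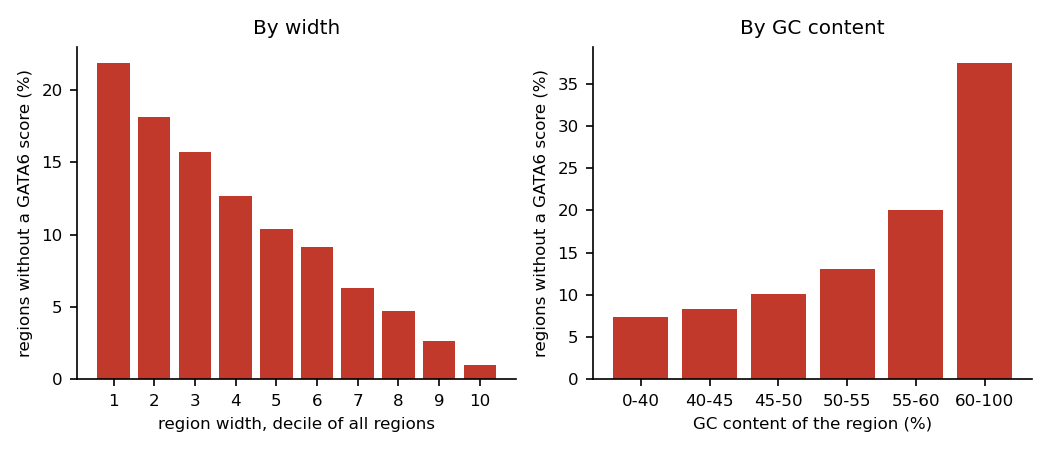
Percent of regions without a GATA6 score (y axis) in 10 groups of region width (left, from narrow to wide) and by GC content (right, percent). The share of unscored regions went from 21.9% to 0.967% with width and from 7.39% to 37.5% with GC content, with 10.3% over all regions.

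The authors sorted GATA6 regions by when GATA6 bound them, by whether OCT4, SOX2 and ESRRB (the pluripotency transcription factors, PTFs) and the endoderm factor SOX17 bound them, and by the histone marks of ES cells. Early&Constant regions, bound from the first hours onward, made up 10.1% of the unscored and 30.1% of the scored regions. Late regions made up 46.0% and 32.2%, and Transient regions, bound early and then lost, 43.9% and 37.8%. Put the other way, 3.71% of all Early&Constant regions lacked a score, against 14.1% of Late and 11.7% of Transient regions. At 300 to 700 bp Early&Constant regions were 9.97% of the unscored and 21.7% of the scored, Late 42.5% and 36.1%, and Transient 47.6% and 42.3%. The Early&Constant and Late contrasts were thus smaller in this band of width. Regions bound by PTFs already at d0 were 25.9% of the unscored and 20.3% of the scored regions, and at 300 to 700 bp the shares were 28.4% and 12%. Regions that gained PTFs ectopically after induction were 13.1% of the unscored and 17% of the scored, which at 300 to 700 bp came to 13.4% and 13.3%. SOX17 binding was assigned to 44.2% and 44.5%, and at 300 to 700 bp to 46.0% and 37.1%.

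The state of the chromatin before induction separated the 2 kinds of region further. The authors' class of accessible chromatin at d0 held 901 unscored regions, or 20.7% of them, against 5.92% of the scored, and the closed class 41.5% against 63.6%. At 300 to 700 bp the accessible class took 20.6% and 5.33%. Regions with promoter marks were 13.9% of the unscored and 6.08% of the scored, active enhancers 14.9% and 10.7%, poised enhancers 19.9% and 14%, facultative heterochromatin 16.2% and 23.1%, and chromatin with none of these marks, called naive in the table, 7.61% and 19.2%. By distance in the GENCODE annotation, 535 unscored regions (12.3%) had their summit within 1000 bp of a transcription start, against 5.91% of the scored. In these promoters Late regions were 53.5% of the unscored and 26.3% of the scored. Among unscored regions 41.9% lay in introns and 43.9% between genes.

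**Figure D3:**
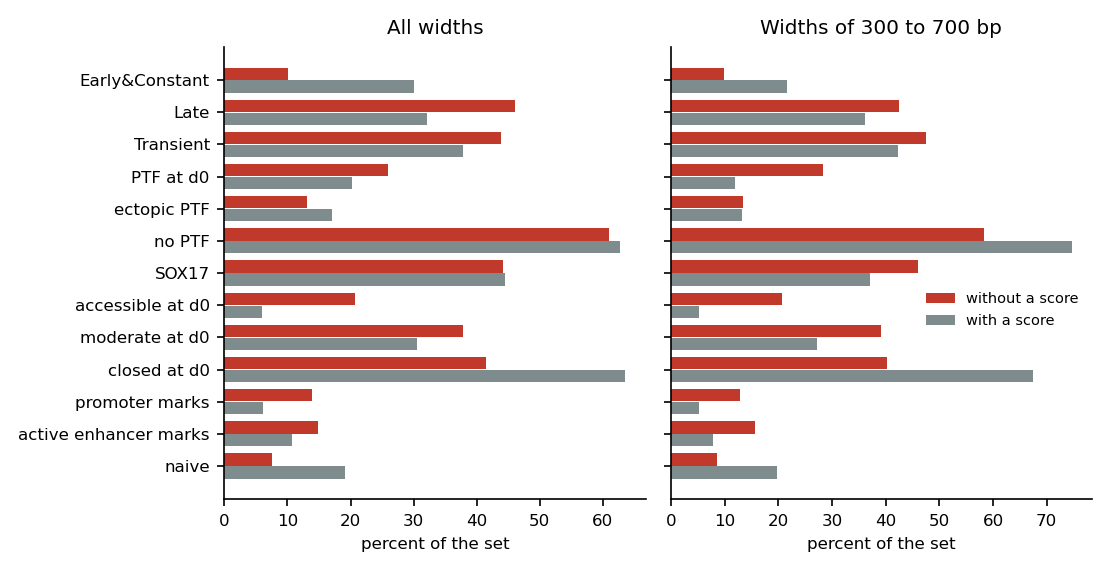
Percent of the unscored and of the scored regions (x axis) in each class that the authors assigned (y axis). Over all widths, unscored regions had the smaller share of Early&Constant (10.1% against 30.1%) and closed regions (41.5% against 63.6%) and the larger share of regions accessible at d0 (20.7% against 5.92%) and with promoter marks (13.9% against 6.08%).

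Over all widths, scores for the motifs of other factors were also given less often in unscored regions, but at 300 to 700 bp most of these differences were small. No SOX17 motif score was given for 36.4% of the unscored and 30.2% of the scored regions, no OCT4-SOX2 score for 39.6% and 27.3%, and no ESRRB score for 70.5% and 62.9%. At 300 to 700 bp the shares were 33.5% and 35% for SOX17, 35.8% and 32.1% for OCT4-SOX2, and 68.6% and 69.2% for ESRRB. All of these scores were missing in 606 unscored regions (13.9%) and in 8.34% of the scored. At 300 to 700 bp the last pair was 10.2% and 9.45%. The 606 regions without any of the motifs had a median of 0.0889 RPM at d0, 0.186 at d2 and 0.140 at d4 in the averages.

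Over time, the median unscored region had 0.0827 RPM at d0, 0.0799 at 8h, 0.0858 at 16h, 0.112 at d1, 0.152 at d2, 0.112 at d4 and 0.103 in XEN cells. Scored regions had medians of 0.0772, 0.162, 0.130 and 0.123 RPM at d0, d2, d4 and in XEN. Both kinds of region were thus highest at d2. These levels are not corrected for region width, and in the recovered libraries the median RPM per kb was higher in unscored regions in 16 of 16 libraries, for instance 0.207 against 0.161 in 8h a and 0.292 against 0.243 in d4 b. The median change from d0, on the scale of log2(RPM + 0.03) used for all changes here, was 0.62 for unscored and 0.70 for scored regions at d2, 0.46 and 0.52 at d4, and 0.22 and 0.42 in XEN.

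In the recovered libraries the median log2 level of unscored regions was -3.23 ± 0.34 (SD, n = 3) at 8h, -2.44 ± 0.18 (n = 3) at d2 and -2.82 ± 0.012 (n = 2) at d4. The 8h and d2 libraries did not overlap, and the difference was 0.79 (2-sided exact permutation test over libraries, p = 0.1, the smallest that 3 against 3 can give; 0.264 after Benjamini-Hochberg adjustment over 29 such comparisons). No comparison of this kind can pass 0.05 with 2 or 3 libraries a group. The difference between unscored and scored medians was -0.019 ± 0.033 at 8h and -0.174 ± 0.039 at d4, lower at d4 in both libraries (exact permutation p = 0.1, adjusted 0.264), and -0.219 ± 0.042 in XEN (exact permutation p = 0.1, adjusted 0.264). In XEN b, where the median region held 4 reads, this difference was -0.249, which is the step of 1 read there, and in XEN a it was -0.189. Between 8h and d2 it moved by -0.029, which was inside the spread between libraries (exact permutation p = 0.7). Unscored regions held 10.1% ± 0.51 (n = 3) of all signal in the recovered regions at 8h, 9.45% ± 0.14 (n = 2) at d4 and 8.92% ± 0.60 (n = 2) in XEN (exact permutation p = 0.3 and p = 0.2 against 8h). The unscored and scored sets therefore followed nearly one course to d2, and the gap that opened after it was small beside the differences between classes.

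Single regions were tested with limma across all 24753 regions, and a call needed a Benjamini-Hochberg adjusted p under 0.05 and a change past 1 on the log2 scale against 8h. At 16h 0 unscored regions were called higher and 1 lower (0.00404% of all regions in each direction), with 113 at an unadjusted p under 0.05. At d1 123 unscored regions (4.92%) rose, where 5.38% of all regions did, and 1 fell (0.0162% of all regions). At d2 919 (36.8%) rose and 46 (1.84%) fell, beside 38% and 1.27% of all regions. At d4 750 (30%) rose and 263 (10.5%) fell, beside 31.7% and 7.09%. In XEN cells 527 (21.1%) were higher and 410 (16.4%) lower than at 8h, beside 23.4% and 10.6%. Between d4 and XEN, 143 (5.72%) were higher and 430 (17.2%) lower in XEN, beside 4.89% and 14.8%. In the averages, which cover all 4351 regions, 33.3% of the unscored were past 2-fold higher than d0 and 2.87% lower at d2 (36.8% and 1.41% of all regions), 27.9% and 12.1% at d4 (31.0% and 7.27%), and 24.0% and 15.3% in XEN (27.7% and 8.83%). Rises were thus near their background share at each time, and falls were above it at d2, where few regions fell, at d4 and in XEN. Inside the authors' classes of accessibility at d0 the averages gave no such excess in the 2 classes compared. In the accessible class 35.2% of the unscored and 37.1% of the scored regions were lower at d4, and 48.2% and 51.6% in XEN. In the closed class 0.0554% and 0.302% were lower at d4. Whether the mix of these classes accounts for the excess was not tested. The d1 count rests on single libraries: it was 0.320% without d1 b and 8.41% without 8h b. Without XEN b, the shallow library, 9.65% instead of 16.4% were called lower in XEN, and the d2 falls were 0.801% without 8h b and 3.96% without 8h c. The share over all regions was not computed for these settings, so they cannot be set against a background.

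The direction of these counts depends on the scale. When each library was centred on the median of all regions, whose median change against 8h was 0.70 at d2 and 0.52 at d4, 12.7% of the unscored regions were higher and 17.3% lower at d2 (14.4% and 14.8% of all regions), 14.9% higher and 20.4% lower at d4 (17% and 16.7%), and 12.3% higher and 25.5% lower in XEN (13.7% and 19.6%). Relative to the typical GATA6 region, more of the unscored regions fell than rose in each of these comparisons, whereas on the deposited scale more rose.

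The classes the authors assigned from the binding of the factors differed far more than unscored from scored regions did. Unscored Late regions had a median level 1.16 higher at d4 than at 8h (log2, 2 libraries against 3), Early&Constant ones 1.17 higher, and Transient ones 0.48 lower, with no overlap between the groups of libraries in any of the 3 (exact permutation p = 0.1, p = 0.1 and p = 0.2). The sizes depended on the scale, and over the other settings Late ranged from 0.55 (pseudocount of 0.15 RPM) to 1.52 (stratified by width), Early&Constant from 0.53 (quantile normalisation) to 1.35 (pseudocount of 0.006 RPM) and Transient from -1.06 (quantile normalisation) to -0.23 (stratified by d0 level). At d4 limma called 529 of 1142 unscored Late regions higher (46.3%) and 8 lower, where 51.1% of the scored Late regions were higher. Of 258 Early&Constant regions 123 (47.7%) rose and 7 fell, after 187 (72.5%) had been higher at d2, and the scored Early&Constant regions were higher in 46.6% at d4 and 65.1% at d2. Of 1098 Transient regions 98 (8.93%) rose and 248 (22.6%) fell, beside 5.01% and 16.2% of the scored Transient regions.

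**Figure D4:**
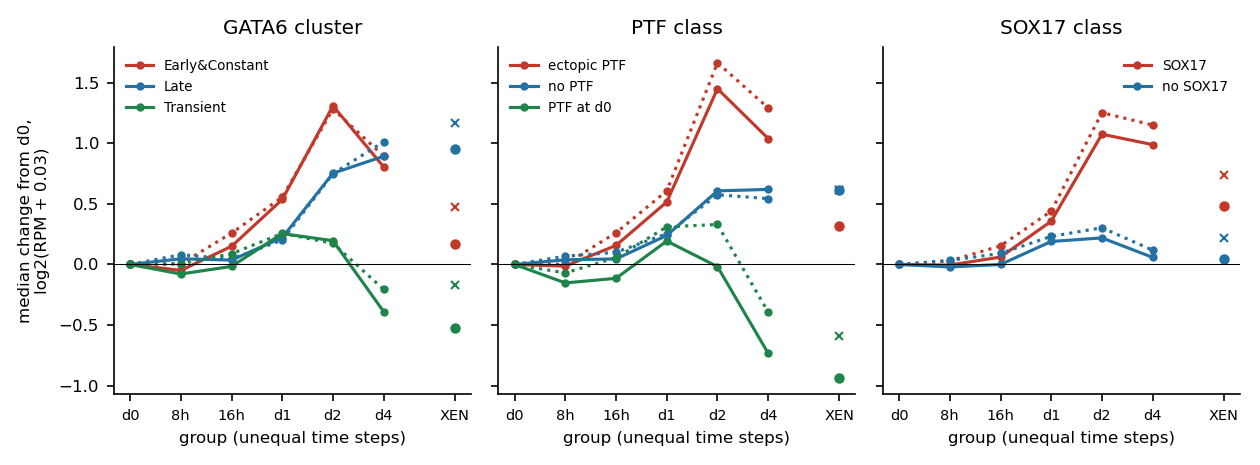
Median change from d0 in the averaged columns (y axis, log2(RPM + 0.03)) by group (x axis, unequal time steps, XEN set apart) for regions sorted by GATA6 cluster and by PTF and SOX17 binding. Solid lines are unscored and dotted lines scored regions, and in XEN dots are unscored and crosses scored. Unscored Late regions reached 0.89 at d4 and unscored regions PTF-bound at d0 reached -0.73, below the scored ones at -0.39.

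SOX17 is the endoderm factor that GATA6 induces. Unscored regions with SOX17 binding had a median of 0.0775 RPM at d0, 0.265 at d2 and 0.209 at d4, and those without it 0.0862, 0.104 and 0.0702 RPM. In the recovered libraries the gap between both was -0.11 ± 0.095 (n = 3) on the log2 scale at 8h and 1.29 ± 0.011 (n = 2) at d4, a shift of 1.39 (exact permutation p = 0.1). Limma called 579 of 1124 unscored SOX17 regions higher at d4 (51.5%), against 171 of 1374 (12.4%) without SOX17. Scored regions were called higher in 57.0% with and 11.5% without SOX17, so the contrast was one of GATA6 regions in general. The separation held inside the GATA6 clusters in the averages, with median changes at d4 of 1.24 and 0.58 for Late regions with and without SOX17, and of 0.22 and -0.51 for Transient ones.

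The 569 unscored regions with ectopic PTF binding were more open at d2 and d4 than at d0. They had a median change from d0 of 1.45 at d2 and 1.04 at d4, against 0.61 and 0.62 for the 2654 without PTFs. Limma called 267 of 352 of them higher at d2 (75.9%) and 0 lower, and 199 (56.5%) higher at d4, beside 79.3% and 62.7% of the scored regions of this class. Their gap to the regions without PTFs was 0.27 ± 0.020 at 8h and 1.52 ± 0.14 at d2 (n = 3 each, exact permutation p = 0.1), a shift that was within 0.03 of that of scored regions.

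The 1128 unscored regions that PTFs occupied before induction went the other way. Their median was 0.210 RPM at d0, 0.180 at 8h, 0.243 at d1, 0.206 at d2, 0.0905 at d4 and 0.0834 in XEN cells. Of the 661 tested, 211 fell at d4 (31.9%) and 51 rose (7.72%), and in XEN 304 were lower (46.0%). Scored regions of this class fell in 24.1% and rose in 12.3% at d4, and 33.0% of them were lower in XEN, where 10.6% of all regions were. The gap between PTF-bound and PTF-free regions moved by -1.33 between 8h and d4 among the unscored, and it was 0.35 more negative than that among the scored, with no overlap between libraries (-0.383 ± 0.017 at 8h and -0.733 ± 0.0028 at d4 for the difference of the gaps, exact permutation p = 0.1, adjusted 0.264). This was the largest difference between unscored and scored regions among the class comparisons tested at d4. Its size depended on the scale, and over the other settings the shift ranged from -0.588 to -0.164.

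Regions with promoter marks had another course. The 605 unscored ones had a median of 0.343 RPM at d0, 0.645 at d2, 0.507 at d4 and 0.286 in XEN cells. The 230 unscored regions over 60% GC had 0.412, 0.848, 0.725 and 0.386 RPM, so GC-rich regions were higher at d2 and d4 and back at the ES cell level in XEN. Of 354 tested regions with promoter marks 160 (45.2%) rose at d2 and 93 (26.3%) at d4, beside 39.7% and 20.2% of the scored ones. In the recovered libraries their median was 0.58 higher at d4 than at 8h, but the libraries overlapped (exact permutation p = 0.3). With quantile normalisation it was 0.148 lower. The 3 unscored regions with the highest d0 level were promoters of Tomm40, which encodes the import pore of the outer mitochondrial membrane, of Cactin, a splicing-associated protein, and of Tle4, a Groucho corepressor. At the Cactin promoter (chr10:81320282-81321138) the libraries gave 1.16 to 2.39 RPM at 8h, 3.01 to 4.21 at d2, 3.66 and 3.84 at d4 and 1.92 and 2.49 in XEN. The d2 and d4 libraries lay above all 8h ones, by 1.28 ± 0.37 (SE) at d2 (limma, adjusted p = 0.00156) and 1.31 ± 0.41 at d4 (limma, adjusted p = 0.0048). Tomm40 differed from 8h by 0.83 ± 0.37 at d2, which did not reach the limit of 1.

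Among the 8 largest rises of unscored regions between d0 and d4 was the promoter of Scoc, which encodes a short coiled-coil protein of the Golgi, at chr8:83458394-83458816. Its libraries gave 0.0190 to 0.0516 RPM at 8h, 0.0489 to 0.155 at d1, 0.660, 1.04 and 1.16 at d2, 0.648 and 0.786 at d4 but only 0.0798 and 0.115 in XEN. The rise was 3.89 ± 0.35 at d2 (limma, adjusted p = 9.47e-25) and 3.52 ± 0.39 at d4, and the XEN value was 0.97 above 8h and so below the limit of a call. The region was closed and in facultative heterochromatin at d0, bound SOX17 and no PTFs, and its best word scored 2.55, low even among unscored regions. Another 6 of these 8 lay near Pik3cb (a catalytic subunit of phosphoinositide 3-kinase), Tnp1 (a sperm chromatin protein), Mical3, Bicc1 (an RNA-binding protein), Foxq1 (a forkhead factor) and Ptpn14 (a tyrosine phosphatase), with averages of 0.0340 to 0.172 RPM at d0 and 0.653 to 1.66 at d4. All 8 bound SOX17 and 5 of them bound ectopic PTFs, where 44.2% and 13.1% of all unscored regions did. Choice by rise favours these classes as well, since regions in them were called higher at d4 more often. All 8 were also in the closed class at d0, which the choice by rise from d0 favours.

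The 8 largest falls at d4 were all Transient and PTF-bound at d0, where 43.9% and 25.9% of all unscored regions were. Choice by fall favours these classes, in which more regions were called lower at d4. All 8 were also in the accessible class at d0, which the choice by fall from d0 favours. The largest was in an intron of Sgo2b, a gene of the shugoshin family that guards centromeric cohesion, at chr8:63929485-63930074, with 0.244, 0.428 and 0.252 RPM at 8h, 0.254 to 0.457 at d1, 0.145 to 0.245 at d2, 0.0201 and 0.0160 at d4 and 0.0416 and 0.0231 in XEN. The d4 and XEN libraries lay below all others, with a difference to 8h of -2.77 ± 0.40 at d4 (limma, adjusted p = 1.47e-10), whereas d2 did not differ beyond the test's limit (-0.52 ± 0.35, limma, adjusted p = 0.217). The promoter of Mup6, a major urinary protein gene, went from 0.277 to 0.545 RPM at 8h to 0.0402 and 0.0428 at d4 (-2.44 ± 0.40, limma, adjusted p = 1.8e-08). The others were nearest to Pole4 (a DNA polymerase epsilon subunit), Inhba (the activin beta A subunit), Myb, Dio3 (a thyroid hormone deiodinase), Mgmt (a DNA repair enzyme) and Etnk1 (ethanolamine kinase), with averages of 0.365 to 0.758 RPM at d0 and 0.0388 to 0.110 at d4. The nearest gene only names a place here, since distances ran up to 816 kb.

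A few regions opened in XEN cells but not in the induced series. At chr8:41154999-41155512 near Mtus1, a microtubule-associated tumour suppressor gene, the 14 libraries of the induced series ranged from 0.0142 to 0.0715 RPM, and the XEN libraries gave 0.739 and 0.912. The difference to 8h was 3.65 ± 0.38 in XEN (limma, adjusted p = 2.18e-18) and 0.05 ± 0.38 at d4 (limma, adjusted p = 0.929). The region nearest to Ankrd7, far outside the gene at chr6:19963571-19964022, read 0 to 0.0603 RPM in the induced series and 0.669 and 0.693 in XEN. Near Mical3 and Gabrg3, in contrast, the averages at d4 were 1.03 and 0.372 RPM on the way to 1.30 and 0.578 in XEN. The 5 largest falls in XEN lay near Ftl1-ps1, Stoml1, Zc3h11a, Nav3 and Akap12, with 0.0237 to 0.128 RPM left of 0.395 to 1.16 at d0. At the region near Ftl1-ps1 most of the loss came after d2, with 0.736 to 0.938 RPM at d2, 0.203 and 0.231 at d4 and 0.0694 and 0 in XEN.

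**Figure D5:**
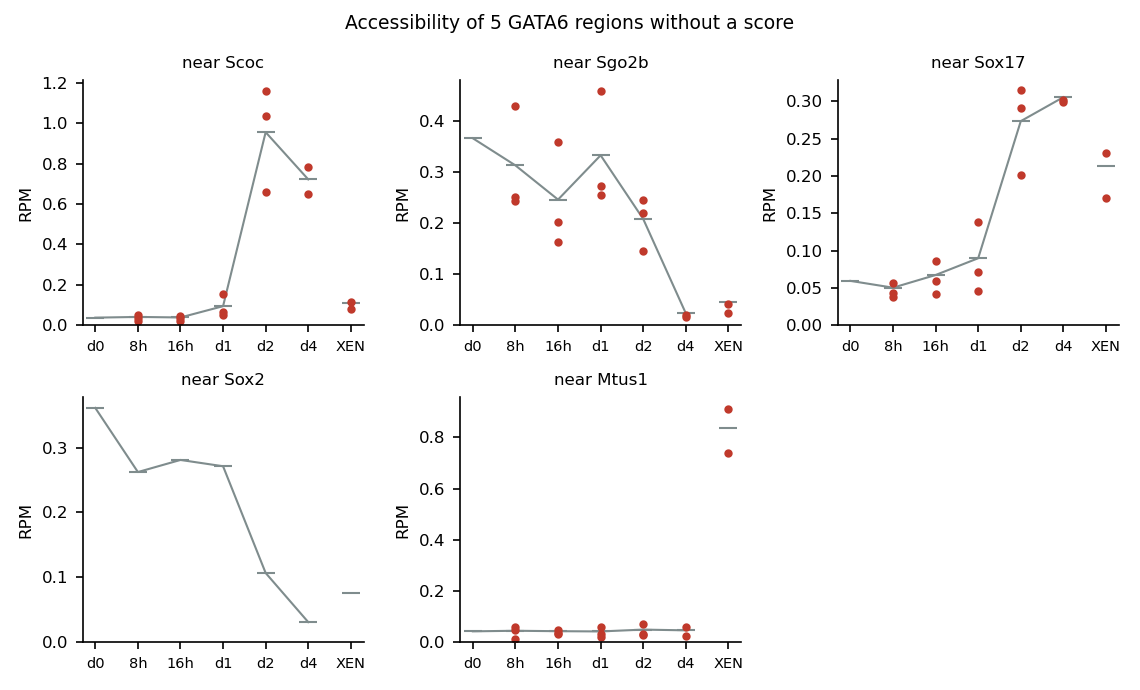
RPM (y axis, scales differ between panels) of the 5 unscored regions whose sequences are shown, by group (x axis). Red points are recovered libraries and the grey line and bars are the deposited averages, which hold an added read per library and so lie slightly higher, and which alone are given for the Sox2 region. The Scoc and Sox17 regions were higher from d2, the Sgo2b and Sox2 regions were lower at d4, and the Mtus1 region was higher in XEN only, with 0.739 and 0.912 RPM.

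Around 25 primitive endoderm genes (transcription factors, matrix and endocytic genes and FGF receptors) 264 regions were nearest, 21 of them unscored, at 14 genes. Of the 12 unscored ones tested, 7 rose and 0 fell at d4, where 31.7% and 7.09% of all regions did. At d2 4 of the 12 rose, where 38% of all regions did. Near Sox17, the region at chr1:4479655-4480018 gave 0.0376 to 0.0563 RPM at 8h, 0.201, 0.291 and 0.315 at d2, 0.301 and 0.299 at d4 and 0.170 and 0.231 in XEN, all of the later libraries above 8h (2.14 ± 0.39 at d4, limma, adjusted p = 6.74e-07). It bound SOX17 and its best word scored 2.06. A second unscored region 131 kb from Sox17 stayed between 0.00479 and 0.0462 RPM in all 16 libraries. The region 109 kb from Pdgfra, the receptor that marks primitive endoderm, gave 0.00940 to 0.0563 RPM at 8h and 0.206 and 0.331 at d4 (2.46 ± 0.38, limma, adjusted p = 2.94e-09). Regions in the neighbouring basement membrane genes Col4a1 and Col4a2 differed in course, one with 1.71 ± 0.39 at d4 and 0.0728 and 0 RPM in XEN, the other with 0.73 ± 0.38 at d4 and 0.239 and 0.185 RPM in XEN. Of these 2, only the first passed the test at d4. Outside the recovered regions, the averages near Dab2, an endocytic adaptor, were 0.108 RPM at d0, 0.523 at d4 and 0.670 in XEN, and those 5 kb from Sox7 0.0654, 0.484 and 0.219.

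Around 20 pluripotency genes 24 of 200 regions were unscored, at 9 genes, and of 15 tested 5 rose and 4 fell at d4, where 31.7% and 7.09% of all regions did. The falls were near Tfcp2l1, Lefty1, Esrrb and Tbx3, and each lay in a Transient region PTF-bound and accessible at d0. At the intron of Esrrb (chr12:86498634-86499341), which encodes one of the PTFs, the libraries gave 0.342 to 0.747 RPM at 8h, 0.291 to 0.336 at d2, 0.0641 and 0.136 at d4 and 0.0923 and 0.107 in XEN (-1.96 ± 0.40 at d4, limma, adjusted p = 8.38e-06). Near Tfcp2l1, a factor of naive pluripotency, d4 read 0.0754 and 0.0962 RPM against 0.190 to 0.531 at 8h. The rises were near Klf4, at 2 regions, near Tbx3, at 2, and near Nr5a2. Tbx3, a T-box factor used in both lineages, had regions of opposite course. The one 2.4 kb from its start, bound by SOX17 and ectopic PTFs, went from 0.109 to 0.216 RPM at 8h to 0.705 and 0.784 at d4, and the one in the gene, PTF-bound at d0, from 0.469 to 0.945 to 0.271 and 0.289. At the region 18 kb from Sox2, which was accessible and PTF-bound at d0, the averages were 0.361 RPM at d0, 0.262 at 8h, 0.281 at 16h, 0.271 at d1, 0.107 at d2, 0.0313 at d4 and 0.0756 in XEN. The second unscored region near Sox2, 378 kb away and bound by SOX17, had 0.221 RPM at d0 and 0.738 at d2.

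Of the 6 regions just on either side of the score limit, 4 were among the recovered regions, limma called 3 of these higher at d4, and 1 of the 6 had a lower average at d4 than at d0. Of the 3 unscored ones nearest under it, the region near Trim24 rose (1.37 ± 0.40 at d4, limma, adjusted p = 0.00219), and the averages were 0.00974 and 0.0410 RPM at d0 and d4 near Bmpr2 and 0.696 and 0.452 near Slc39a14. Of the 3 scored ones at the limit, those at the promoter of Lpar1 and in Lin28a rose at d4 (1.06 ± 0.39 and 1.02 ± 0.40, limma, adjusted p = 0.0196 and 0.0288) and the one near Ube2u had 0.81 ± 0.34. When scored regions were ordered by score, the median change from d0 to d4 was 0.55, 0.57 and 0.45 in the low, middle and high groups, beside 0.46 without a score, while at 16h it was 0.07, 0.12 and 0.17 beside 0.03.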

How the data were processed

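ATAC-seq values were taken from 1 table of 42403 GATA6-bound regions (mm10). Per the study's methods, the authors trimmed reads with cutadapt, aligned them with Bowtie2, removed duplicates, kept fragments under 100 bp, counted them in the regions, and corrected for library size, so the deposited RPM are not per width. There is 1 column a group, 7 in all, and that these are averages over libraries was inferred from their digits. The deposited motif score is the authors' best FIMO match. Their classes of binding, marks and siOct4 response were used as labels, and 52 other columns of per-sample values or of the authors' own comparisons were not used.

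Limma was planned on replicate columns. As the columns are averages, whole reads of 16 libraries were recovered at 24753 regions (tolerance 1e-09 reads) after taking off 1 read per region that the digits show was added, and limma 3.58.1 with a trend was fitted to log2(RPM + 0.03) of these, for all regions together. Medians over regions were compared by 2-sided exact permutation over libraries. The steps were tested on simulated data. Per the study's methods, the libraries of a group came from independent cultures, and p-values measure the spread between these. Scores of unscored regions came from a matrix fitted to the deposited scores, with windows holding T at position 5, a base in none of the matches, left out. Genes and starts came from GENCODE M21, and a promoter lies within 1000 bp of a start.

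Regions were named by rule: the 8 largest changes in each direction at d4 and the 5 largest at d2 and in XEN among those limma called, the 5 highest at d0, the 3 lowest scores, and regions nearest to genes of the lists. The 3 unscored regions nearest under the limit were added. Some regions that the rule names are not reported here. The members and lists were chosen with earlier results of these data known. Other pseudocounts, filters, scalings, strata of width, d0 level and cluster, and each library left out were tried.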

Additional observations from a re-analysis of the deposited data

How the results depend on the processing

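No paired analysis was possible because the recovered libraries carry no replicate number. Of the compared values, 921 kept their direction or stayed within the set margin, 55 moved and 35 changed sign. With libraries centred on their median, the unscored median against 8h was -0.0447 at 16h, -0.0175 at d2, -0.1312 at d4 and -0.2 in XEN, and with quantile normalisation -0.0628, -0.0182, -0.1263 and -0.1804, with -0.1482 for promoter marks at d4. Limma then called, centred, 1.48% higher at d1, 12.7% higher and 17.3% lower at d2, 14.9% and 20.4% at d4 and 12.3% and 25.5% in XEN, and with quantiles 1.64% at d1, 11.5% and 13.1% at d2, 15.9% and 20.8% at d4 and 24.8% lower in XEN. Averages past 2-fold (33.3% higher and 2.87% lower at d2, 27.9% and 12.1% at d4, 24.0% and 15.3% in XEN) became, centred, 10.1% and 18%, 12.5% and 22.7%, and 12.5% and 25.6%, and with quantiles 9.29% and 13.9%, 13.2% and 21.7%, and 15.9% and 27.2%. A pseudocount of 0.15 RPM lowered the calls to 0.240% at d1, 18.8% and 0.160% at d2, 11.7% and 3.48% at d4 and 5.32% and 5.20% in XEN, and the averages to 16.4% and 0.253%, 10.3% and 3.98%, and 5.95% and 5.58%. Falls at d2 were 3.32% (limma) and 4.48% (averages) at 0.006 RPM, 3.36% per kb and 4.48% with no limit on the change. Stratified by cluster, 7.45% rose at d1. Among these changed settings, shares over all regions are given only for the centred limma calls at d2, d4 and in XEN. The other shares therefore cannot be set against a background.

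Small shifts from 8h in the difference between unscored and scored regions changed sign. The differences themselves were -0.200 for Early&Constant and 0.129 for Late regions at d4. The Early&Constant shift at d4 was -0.0336 at 0.15 RPM, -0.0406 with low values left out and -0.0004 with the added read kept. The Late shift at d4 was -0.0387 with low values left out and -0.1191 stratified by d0 level. Over all clusters the shift at d1 was -0.0147 stratified by d0 level and -0.0202 with means. At d2 it was 0.1298 stratified by cluster, 0.0406 by width and 0.0298 with the low score group added. For the SOX17 gap the shift at d4 was -0.0171 at 0.15 RPM and -0.1283 by d0 level. For the ectopic PTF gap the shift at d2 was -0.061 at 0.15 RPM, -0.0434 by cluster, -0.1293 by d0 level, -0.103 by width and -0.0102 with the low score group. The unscored median in XEN against 8h was -0.0443 stratified by width. The cause of these changes was not tested. In regions of 300 to 700 bp 42.5% of the unscored were Late, 47.6% Transient, 58.2% PTF-free, 28.4% PTF-bound at d0 and 46.0% SOX17-bound. With each library left out in turn, the unscored median at 16h against 8h ranged from -0.1418 to 0.2158. The shift of the difference from 8h ranged from -0.0108 to 0.0382 at d1 and from -0.0532 to 0 at d2. The Early&Constant shift at d4 ranged from -0.0341 to 0.0395 and the ectopic PTF one at d2 from -0.0026 to 0.0577. Rises at d1 ranged from 0.320% to 8.41% (0.961% without 8h c and 2.28% without d1 c). Falls ranged from 0.801% to 3.96% at d2 and from 9.65% to 19.7% in XEN. The shift from 8h to d4 in the difference between unscored and scored regions was negative in all settings, from -0.183 to -0.0166.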

Other observations

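The siOct4 class, set by the authors from GATA6 binding after Oct4 knockdown, was not used above. It held 167 unscored regions whose GATA6 binding was decreased by the knockdown (3.84% of the unscored, where 6.25% of all regions were). Increased binding was assigned to 279 (6.41%, where 8.57% of all were). At 300 to 700 bp the decreased class took 3.996% of the unscored and 4.39% of all regions, and the increased class 7.496% and 8.18%. Both contrasts were thus smaller in this band of width. Unscored regions of the decreased class had medians of 0.0926 RPM at d0, 0.386 at d2, 0.159 at d4 and 0.0826 in XEN, so they peaked at d2, and limma called 88 of 108 higher at d2 (81.5%) and 45 at d4 (41.7%). Those of the increased class had 0.0464, 0.105, 0.202 and 0.177 RPM, with 70 of 165 called higher at d2 (42.4%) and 131 at d4 (79.4%) and 0 lower at either time. The scored regions gave 60.7% at d2 and 26.5% at d4 for the decreased class and 48.9% and 73.4% for the increased class.

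Near 4 trophoblast marker genes, 4 of 26 regions were unscored, and their averages had a median of 0.255 RPM at d0, 0.357 at d2, 0.182 at d4 and 0.0852 in XEN. Near 7 feeder fibroblast genes 0 of 14 regions were unscored.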
